A study of Mus musculus with 24 samples.

Results

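Secretin-treated male dnTGFB mice were compared with untreated male wild-type (WT) mice, to describe which transcripts of their bile duct cells still differ from WT after the treatment. The comparison holds 6 of the 24 libraries of the series, 3 for each group, taken by their titles. WT mice were untreated and killed at 32 weeks of age. The dnTGFB mice carry a dominant-negative TGF-β receptor II, are used as a model of primary biliary cholangitis, and were given secretin by osmotic minipump (daily dose 4 µg/kg) over 8 weeks and killed at 40 weeks. Genotype, treatment and age therefore differ together between the groups, and their parts in any difference cannot be told apart. Antibody-coated magnetic beads were used to take up intrahepatic cholangiocytes, whose poly(A) RNA was sequenced. By the labels' protocols, each group is 1 pool of 6 to 8 mice whose RNA was sequenced in triplicate. The 3 libraries of a group are then not 3 mice, and p-values reflect how these libraries vary, not how mice vary. Levels of 3 untreated male dnTGFB libraries, whose age is not given, and of 3 libraries of male WT mice given the same secretin treatment are set beside them as values. Titles and genotype labels agree for the 6 libraries compared, but these other 2 groups are named by their titles, which their genotype labels contradict.

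Cholangiocytes line the bile ducts and modify bile after hepatocytes have made it. Secretin, a hormone of the small intestine, binds a receptor (Sctr) on the basolateral side of these cells, raises cyclic AMP and opens the chloride channel Cftr, and the chloride gradient then drives bicarbonate secretion through the anion exchanger Slc4a2. In dnTGFB mice the dominant-negative receptor is driven by the CD4 promoter, so that T cells lose TGF-β signalling and an autoimmune inflammation of small bile ducts follows.

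The 6 libraries held 20582062 to 30203330 counts. WT library 1 stood apart from WT libraries 2 and 3. Mitochondrially encoded genes took 42.75% of its counts, against 9.73% and 9.75% in WT libraries 2 and 3 and 5.31% to 5.66% in the 3 dnTGFB secretin libraries. Its chi-square per gene against the other WT libraries, where 1 is the sampling noise of repeat sequencing, was 403 and 421, while WT libraries 2 and 3 differed by 3.26 and the dnTGFB secretin libraries by 2.54 to 2.94. WT library 1 thus differed by far more than the triplicate sequencing of 1 pool that the labels give would leave. What sets it apart was not tested, and its difference is part of the spread that the test of the 6 libraries uses. Levels are given as CPM (counts scaled by library size, with TMM factors), computed over the 12 male libraries so that untreated dnTGFB and WT secretin levels can be set beside them. On this scale the 28 hepatocyte markers summed to 25201 CPM in WT library 1, to 4247 and 4196 CPM in the other WT libraries and to 5943 to 5991 CPM after secretin. Defining biliary genes were detected in all 6 libraries, with Krt19 between 155 and 369 CPM, and so were endothelial markers, whose 16 genes summed to 7366 to 11136 CPM. Counts of list members below are therefore given also without WT library 1, where the shares over all genes differ as well. The groups set beside differ in content too. Untreated dnTGFB libraries 1 and 2 held 55.07% and 55.03% mitochondrially encoded counts and 42512 and 40713 CPM of hepatocyte markers. Untreated dnTGFB library 3 held 1429218 counts, with heart muscle markers at 15648 CPM and neuronal markers at 6810 CPM. In secretin-treated WT the mitochondrial share was 19.38% to 19.46% and hepatocyte markers 20028 to 21167 CPM. What this content adds to their levels was not tested.

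**Figure D1:**
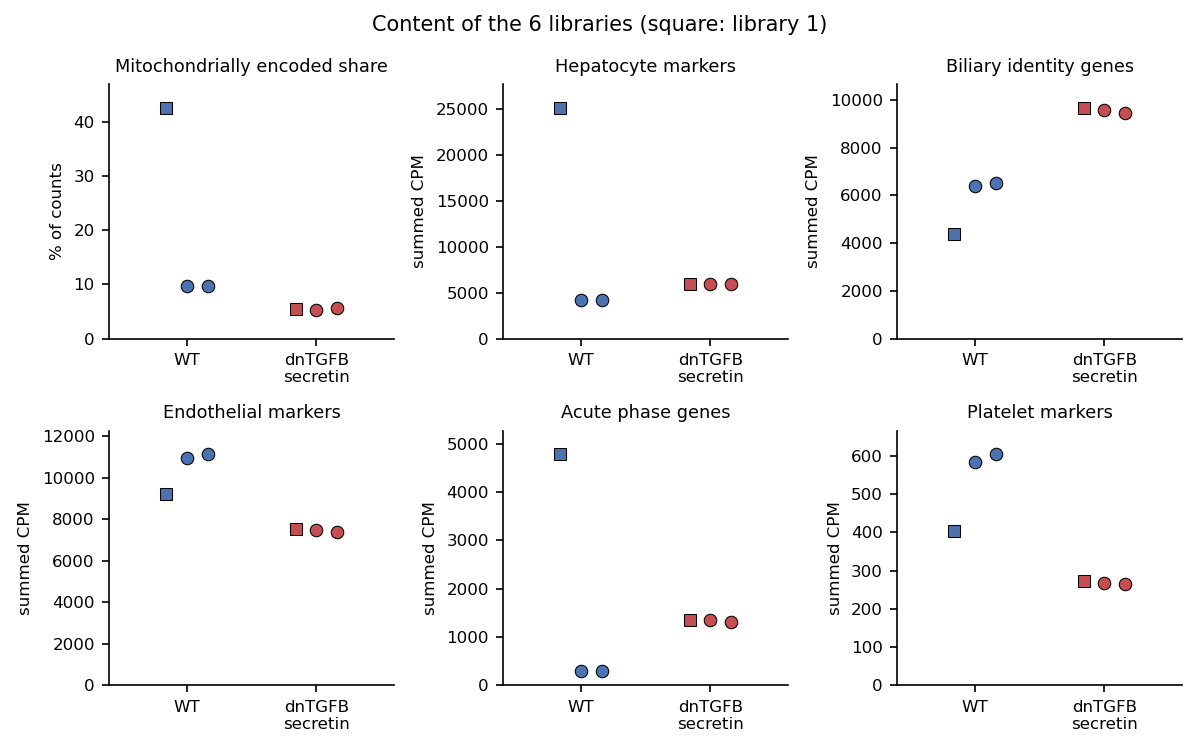
Content of the 6 libraries in WT and secretin-treated dnTGFB males, as the mitochondrially encoded share of counts (%) and as summed CPM of 5 gene lists; each point is a library and squares mark library 1 of a group. WT library 1 lies far above the others for the mitochondrial share (42.75%), hepatocyte markers (25201 CPM) and acute phase genes (4786 CPM), and below the other WT libraries for biliary genes.

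Of 17754 genes tested with edgeR's quasi-likelihood test, 5646 (31.8%) differed at a Benjamini-Hochberg adjusted p under 0.05. Of these, 2487 (14.0% of the genes tested) were higher and 3159 (17.8%) were lower in secretin-treated dnTGFB, and 1017 (5.73%) and 680 (3.83%) of them, 1697 in all (9.56%), by at least 2-fold. Without WT library 1, 9609 of 18179 genes were called (52.9%), 4754 higher (26.2%) and 4855 lower (26.7%), and 5624 of the 5643 calls that were tested in both fits kept their call and direction. Leaving out a dnTGFB secretin library gave 3313 to 3458 calls, and leaving out WT library 2 or 3 gave 4722 and 4756. A fit of all 12 male libraries, which takes in the unlike untreated dnTGFB library 3, called 814 genes (4.34%), 353 higher (1.88%) and 461 lower (2.46%), of which 788 were among the 5646. The same fit without WT library 1 and untreated dnTGFB library 3 called 7306, 3627 higher and 3679 lower. With plain library totals as the scaling, the median log2 fold change over all genes went from -0.03 to 0.33, and the test called 2758 genes higher and 542 lower, so the split between the directions depended on the scaling, and list medians are given beside the median of all genes. For 8552 genes (48.2%) all libraries of 1 group lay above all of the other, so a lack of overlap is common here. Fold changes are given as log2 ± an approximate SE from the 6-library fit, dnTGFB secretin minus WT, so they differ slightly from ratios of the levels.

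The 10 largest increases, among protein-coding genes that reached 10 CPM in 1 of the groups and leaving out predicted genes and antigen receptor segments, were in pancreatic exocrine genes, in Slpi, an inhibitor of leukocyte serine proteases made by mucosal epithelia, in Reg1, a secreted lectin of regenerating pancreas and gut, and in Rph3a, a protein of synaptic vesicles. Slpi (chromosome 2, 164354070 to 164389095, GRCm38) lay at 32.3, 21.1 and 20.2 CPM in WT and at 677, 716 and 657 CPM after secretin in dnTGFB. The groups were far apart, with a log2 fold change of 4.76 ± 0.24 (adjusted p = 0.000118), and 5.04 without WT library 1. In untreated dnTGFB, Slpi was at 45.2, 43.7 and 65.1 CPM and in secretin-treated WT at 44.5, 42.2 and 44.3 CPM, so all libraries of these groups lay below those of treated dnTGFB. Reg1 (chromosome 6, 78422711 to 78428667) was at 10.03, 3.02 and 3.30 CPM in WT and at 106, 109 and 107.0 CPM in treated dnTGFB, a log2 change of 4.27 ± 0.55 (adjusted p = 0.00625). Rph3a rose from 1.22, 0.979 and 1.21 CPM to 26.4, 27.3 and 28.5 CPM.

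The largest decreases were in genes of platelets and B cells. Ppbp, a platelet chemokine, was at 59.9, 100 and 106 CPM in WT and at 2.58, 1.66 and 1.58 CPM in treated dnTGFB, a change of -5.54 ± 0.32. The platelet tubulin Tubb1 (-5.19 ± 0.56), the platelet receptor subunit Gp9 (-4.20 ± 0.22) and Rgs18 (-5.39 ± 0.42), a regulator of G-protein signalling in platelets, fell with it. The B cell genes Pax5, Fcmr, Fcer2a, Fcrl1 and Cd22 were also among the 10 largest decreases, between -4.19 and -5.17. WT library 1 was the lowest of the WT libraries for these genes. Its values lay above every treated library, which the choice of genes without overlap between the groups required. In a bulk sample, fewer cells of a type and less RNA per cell cannot be told apart.

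**Figure D2:**
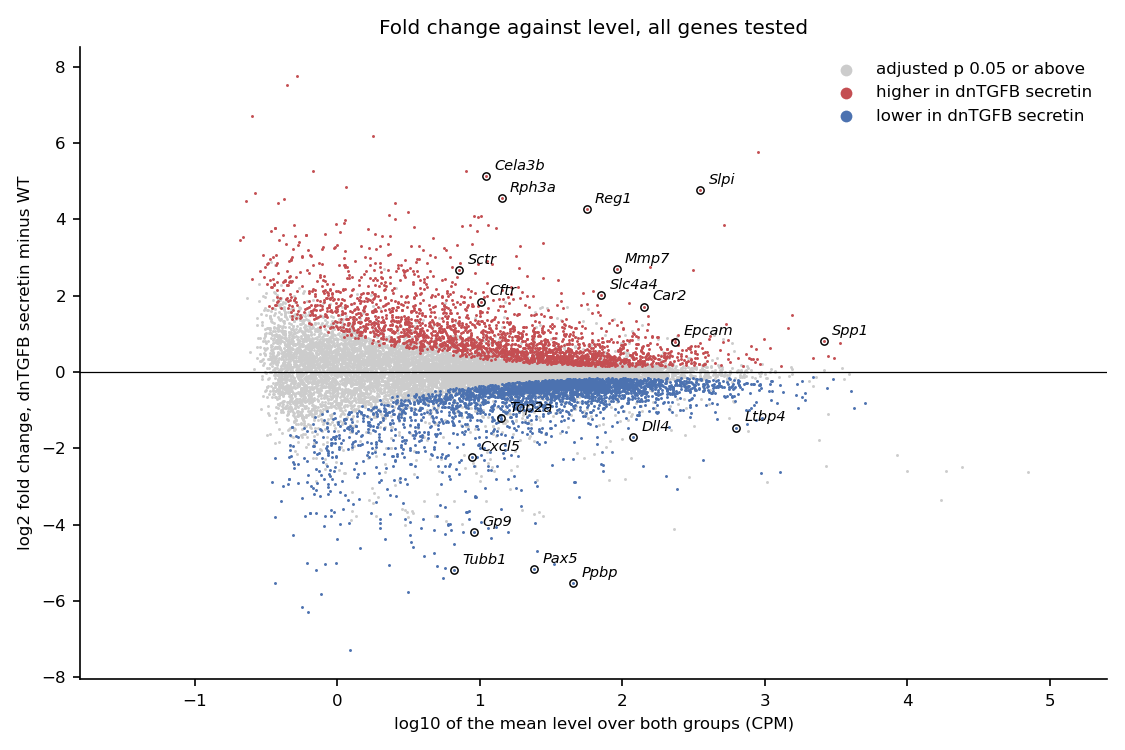
Log2 fold change of treated dnTGFB over WT against the mean level of both groups (log10 CPM) for all 17754 genes tested; red and blue points have an adjusted p under 0.05, and circles mark named genes. Slpi, Reg1, Cela3b and Rph3a lie above 4 on the log2 axis, Ppbp, Pax5 and Tubb1 lie below -5, and Mmp7, Sctr, Slc4a4, Cftr and Car2 form a middle group of increases.

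The transcripts of Cftr, Slc4a4 and Car2 were higher in treated dnTGFB, that of the secretin receptor was higher with a call that was lost in 5 of the 6 fits without a library, and most of the list was not called. Sctr was at 4.22, 0.638 and 0.886 CPM in WT and at 12.8, 13.2 and 11.3 CPM in treated dnTGFB, without overlap, and WT library 1 was the highest WT library. Its log2 change was 2.67 ± 0.73 (adjusted p = 0.0443) and 4.00 without WT library 1 (adjusted p = 9.92e-22). Leaving out any other library ended the call, with adjusted p from 0.0691 to 0.117. Untreated dnTGFB had 1.73, 2.13 and 1.76 CPM of Sctr and secretin-treated WT 5.03, 6.81 and 3.98 CPM, so the receptor transcript was highest in the treated dnTGFB libraries of the male groups. Sct, the hormone, was at 0.281, 0.468 and 0.322 CPM in WT and at 0.166, 0.253 and 0.189 CPM in treated dnTGFB, too low to pass the filter on low counts.

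Cftr, the chloride channel, rose from 6.05, 3.36 and 3.78 CPM to 17.1, 15.2 and 16.2 CPM, by 1.84 ± 0.22 (adjusted p = 0.000655). Slc4a4, which takes up sodium and bicarbonate, rose from 29.0, 28.6 and 26.0 CPM to 114.0, 117 and 114.0 CPM, by 2.01 ± 0.07 (adjusted p = 3.08e-06), and was at 21.8, 23.1 and 32.8 CPM in untreated dnTGFB. Car2, the carbonic anhydrase that makes bicarbonate in the cell, rose from 52.4, 70.5 and 72.9 CPM to 221.0, 217 and 218 CPM, by 1.71 ± 0.11. These 3 genes showed no overlap between the groups, and all 3 were called with all 12 male libraries. Slc4a2, the chloride and bicarbonate exchanger, lay at 36.0, 40.5 and 42.7 CPM in WT and at 46.0, 45.9 and 46.2 CPM in treated dnTGFB, and its change of 0.18 ± 0.07 did not pass (adjusted p = 0.0713).

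Of 31 genes on the list of secretin signalling and bicarbonate secretion, 29 were tested and 17 were not called. Of these 29, 8 rose and 4 fell, where 14.0% of all genes rose and 17.8% fell. The list median was 0.08, beside -0.03 for all genes. The other increases included Slc9a3, the apical sodium and proton exchanger, at under 2 CPM, and the sodium pump subunit Atp1b1 (0.66 ± 0.17). The decreases included the water channel Aqp1, the G-protein gene Gnas and the VIP receptor Vipr1. Aqp1, which endothelial cells also express, fell from 1893, 2394 and 2426 CPM to 1217, 1205 and 1157 CPM (-0.94 ± 0.08), and was at 1232, 1272 and 260.2 CPM in untreated dnTGFB. Gnas fell from 369.0, 388 and 392 CPM to 209, 212 and 221 CPM (-0.87 ± 0.05). Without WT library 1 the list counted 12 higher and 6 lower, with another library left out 5 to 9 higher and 3 lower, with all 12 libraries 5 and 1, and with library totals 7 and 0, when the decreases of Aqp1 (adjusted p = 0.158) and Gnas (0.2) were not called. The calls of Slc9a3 and Atp1b1 were also lost without any 1 of the treated libraries, at adjusted p of up to 0.0854.

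**Figure D3:**
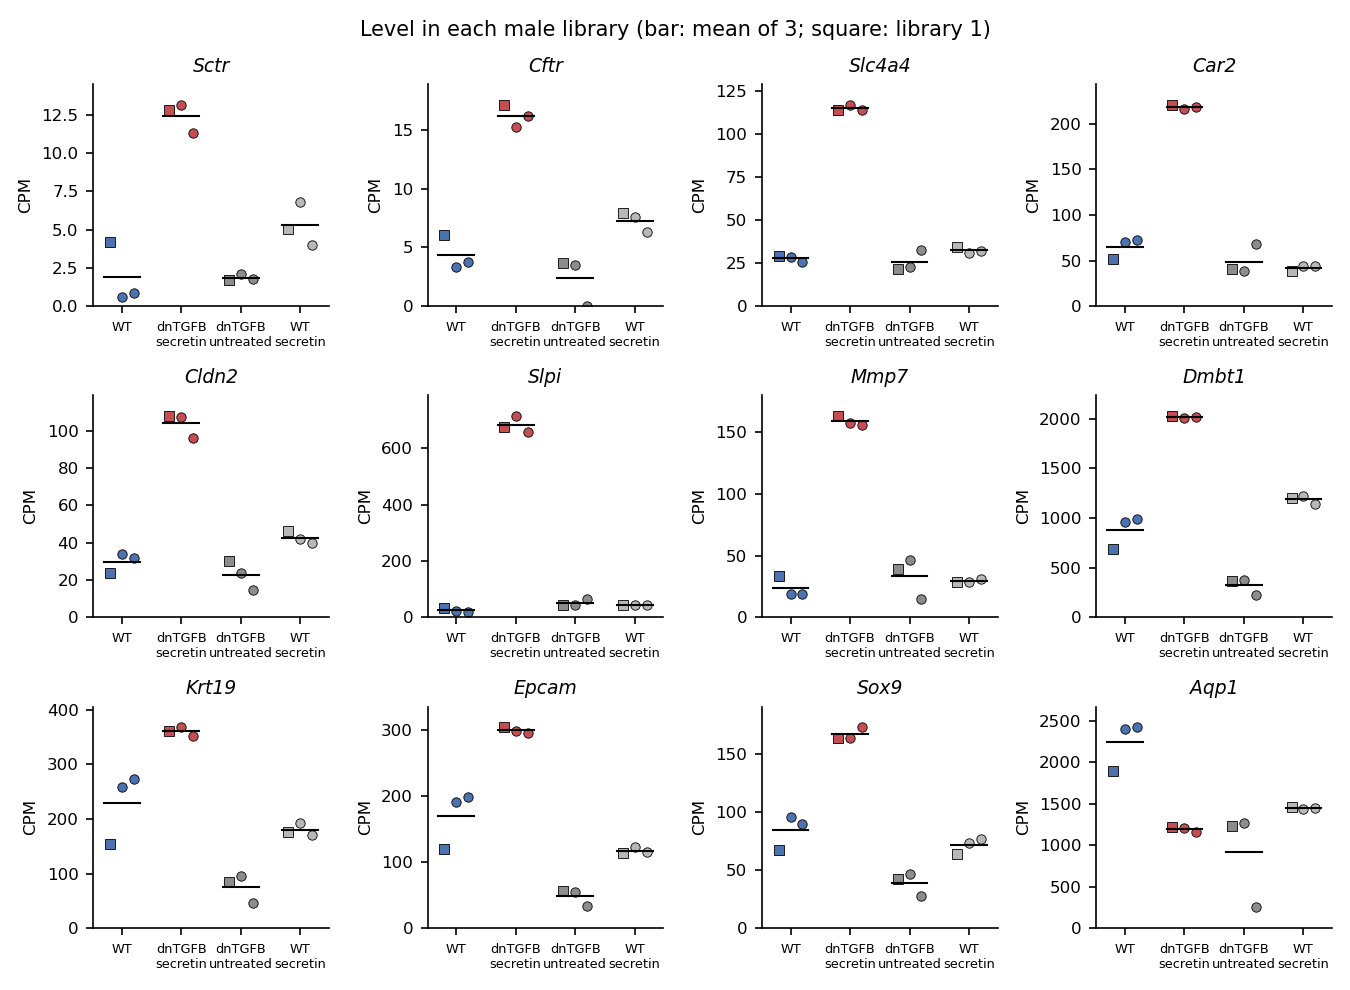
Level (CPM) of 12 epithelial genes in each library of the 4 male groups; points are libraries, squares mark library 1 and bars are means of 3 libraries. Treated dnTGFB is the highest group for all of them except Aqp1, and the other 3 groups lie close together for Slc4a4, Slpi and Mmp7.

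Genes of biliary epithelial identity moved in 1 direction. All 26 listed genes were tested, 19 rose and none fell, where 14.0% of all genes rose, with a median of 0.62. Mmp7, a matrix protease of ductular epithelium, changed most, from 33.1, 19.3 and 19.1 CPM to 163, 157 and 156.0 CPM (2.70 ± 0.26). Sox9, the transcription factor of duct fate, rose from 67.3, 96.2 and 89.7 CPM to 164, 164 and 174 CPM (0.95 ± 0.11), and Tspan8, a membrane tetraspanin, from 79.1, 124 and 127 CPM to 213, 209 and 218 CPM (0.93 ± 0.17). The claudin Cldn7 (0.95 ± 0.22), the secreted phosphoprotein Spp1 (0.81 ± 0.17) and the adhesion protein Epcam (0.80 ± 0.18) rose too, but these 3 calls were lost when any treated library was left out, at adjusted p of up to 0.0759. Krt19, the keratin that marks cholangiocytes, was at 155, 258 and 273 CPM in WT and at 361, 369 and 351 CPM in treated dnTGFB. Its groups did not overlap, but its change of 0.63 ± 0.20 did not pass (adjusted p = 0.0654), and without WT library 1 it was 0.43 (adjusted p = 1.94e-15). Untreated dnTGFB lay below WT for Krt19 and Epcam, in libraries whose other content differs as given above. Krt19 was at 85.1, 96.2 and 45.7 CPM there and Epcam at 56.8, 55.5 and 34.0 CPM.

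The list counted 25 higher and 0 lower without WT library 1, 11 to 21 higher with another library left out, 7 with all 12 libraries and 21 with library totals. The summed level of the 26 genes was 4377, 6400 and 6501 CPM in WT, 9678, 9585 and 9470 CPM in treated dnTGFB, 2447, 2502 and 1237 CPM in untreated dnTGFB and 4576 to 4649 CPM in secretin-treated WT. Endothelial and B cell markers were lower in the same treated libraries, as given below, and their part in the higher biliary values was not tested.

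Tight junction and polarity genes rose more often than they fell, 9 against 2 of 20, beside 14.0% and 17.8% of all genes, with a median of 0.40. The pore-forming claudin Cldn2 rose from 23.9, 34.0 and 31.8 CPM to 108, 108 and 96.3 CPM (1.77 ± 0.12, adjusted p = 6.53e-05), while untreated dnTGFB had 30.1, 23.6 and 14.7 CPM and treated WT 46.2, 42.1 and 39.7 CPM. Crb3, an apical polarity protein, changed by 0.63 ± 0.15 and Tjp3, a junction scaffold, by 0.63 ± 0.16, and Cldn6 fell by 0.88 ± 0.21, from 7.92, 12.6 and 15.4 CPM to 6.46, 6.94 and 6.44 CPM. The calls of Crb3, Tjp3 and Cldn6 were lost without 2 or more of the 6 libraries in turn, at adjusted p of up to 0.0727, and that of Cldn2 was kept in all 6 such fits. Counts were 12 higher and 3 lower without WT library 1, 5 to 11 and 0 to 2 with another library left out, 3 and 0 with all 12 libraries, and 8 and 0 with library totals.

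Mucins and defence proteins of mucosal surfaces rose in 7 of 15 tested genes, where 14.0% of all genes rose, and fell in none, with a median of 1.02. Besides Slpi these included Dmbt1, a scavenger receptor secreted into bile, which rose from 685, 959 and 995 CPM to 2030, 2009 and 2013 CPM (1.17 ± 0.12). Tff2, a trefoil peptide, rose from 13.4, 16.3 and 16.9 CPM to 31.4, 34.6 and 32.1 CPM (1.04 ± 0.10), and the membrane mucin Muc4 from 11.8, 7.79 and 6.88 CPM to 18.5, 20.2 and 18.1 CPM (1.06 ± 0.21). Pigr, which carries IgA across the epithelium, was at 444, 219 and 222 CPM in WT and at 601, 572 and 599 CPM in treated dnTGFB. It did not pass in the 6 libraries (0.96 ± 0.34, adjusted p = 0.0991) and did without WT library 1 (1.41). Lcn2, an iron-binding defence protein, was not called either (1.23 ± 0.80, adjusted p = 0.316), because WT library 1 held 172 CPM beside 36.5 and 33.8 CPM, and its log2 change without that library was 2.47. Counts were 12 higher without WT library 1, 7 in each of the other leave-one-out fits, 5 with all 12 libraries and 10 with library totals.

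B cell transcripts were far lower in treated dnTGFB. Of 19 B and plasma cell markers, all tested, 17 fell and Jchain rose, where 17.8% of all genes fell, and the median was -2.94. Pax5, the B lineage factor, fell from 34.9, 53.4 and 52.9 CPM to 1.33, 1.52 and 1.17 CPM (-5.17 ± 0.20, adjusted p = 9.67e-06). The complement receptor Cr2 (-4.74 ± 0.30) and the IgE receptor Fcer2a (-4.52 ± 0.31) fell alongside. Untreated dnTGFB was also below WT, with Pax5 at 11.4, 8.79 and 1.17 CPM, and treated WT lay between, at 19.5, 16.9 and 16.4 CPM. Jchain, which joins IgA and IgM and marks plasma cells, went the other way, from 121, 183 and 189 CPM to 337, 329.7 and 328 CPM (0.98 ± 0.15, adjusted p = 0.00343). The list had 18 lower without WT library 1, all its members but Jchain, so also the plasma cell gene Mzb1. It had 17 lower in every other alternative given here.

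Among immunoglobulin constant genes, the heavy chains of switched classes rose and Ighm and Ighd fell, while most light chain genes tested rose. Of 13 such genes 12 were tested, 9 rose and 2 fell, read against 14.0% and 17.8% of all genes, in a set described after its values were seen. Ighg1, the constant region of IgG1, was at 36.1, 29.9 and 29.3 CPM in WT and at 1774, 1822 and 1698 CPM in treated dnTGFB. The groups lay far apart (5.76 ± 0.11, adjusted p = 4.52e-07), and Ighg1 was at 71.8, 64.2 and 181 CPM in untreated dnTGFB and at 57.4, 58.3 and 58.6 CPM in treated WT. Igha, of the IgA that is carried into bile, rose from 86.1, 54.4 and 55.0 CPM to 969, 1016 and 929.5 CPM (3.86 ± 0.23). Ighg2c (2.69 ± 0.09), Ighg2b (2.74 ± 0.07), Ighg3 (1.98 ± 0.13) and the light chain Igkc (1.496 ± 0.20) rose too, as did Ighe, at under 4 CPM, and the light chains Iglc1 and Iglc2, while Iglc3 was not called (0.27 ± 0.26, adjusted p = 0.474). Ighd and Ighm, the classes of naive B cells, fell, Ighm from 704, 1260 and 1282 CPM to 430.5, 434 and 422 CPM (-1.36 ± 0.23) and Ighd from 14.7, 27.4 and 27.1 CPM to 1.06, 1.08 and 1.29 CPM (-4.35 ± 0.27). All 11 calls were kept without each library in turn, with library totals and with all 12 male libraries, with adjusted p of up to 0.0432 for Ighm when a library was left out. Constant genes of the IgG classes resemble each other, so reads shared between them make the single values uncertain.

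MHC class II genes divided in the same comparison, 5 higher and 4 lower of 10, beside 14.0% and 17.8% of all genes. The 4 that fell were H2-Ob (-3.96 ± 0.25), H2-Oa (-3.98 ± 0.37), H2-DMb2 (-2.42 ± 0.29) and H2-Eb2 (-1.83 ± 0.37), where H2-Oa and H2-Ob pair to restrain peptide loading, mainly in B cells. H2-Ob was at 31.1, 53.01 and 52.4 CPM in WT and at 3.48, 2.42 and 3.03 CPM in treated dnTGFB. H2-DMb1 rose from 29.4, 28.2 and 27.1 CPM to 62.9, 65.0 and 66.4 CPM (1.16 ± 0.07), and the classical genes H2-Aa (0.33 ± 0.06), H2-Ab1 (0.45 ± 0.09) and H2-Eb1 (0.39) changed less. The counts were also 5 and 4 without WT library 1. The 4 decreases were called with all 12 libraries and with library totals, while only H2-DMb1 among the increases was called with library totals and none with all 12. H2-Eb1 also lost its call without treated library 1 or 2, at adjusted p of up to 0.0517. Genes of this family resemble each other closely, so reads shared between copies make single values uncertain.

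Platelet and megakaryocyte markers fell in 12 of 13 tested genes, where 17.8% of all genes fell, with a median of -3.78. Itgb3, an integrin also found on endothelium and macrophages, rose from 78.2, 81.0 and 82.5 CPM to 107, 105 and 106 CPM (0.36 ± 0.05). Gp9 was at 13.8, 20.5 and 17.6 CPM in WT and at 1.16, 0.723 and 0.978 CPM in treated dnTGFB. Treated WT was also low, with Gp9 at 0.515, 0.441 and 1.101 CPM and Ppbp at 2.22, 2.45 and 4.82 CPM. Untreated dnTGFB lay between treated dnTGFB and WT for Ppbp, at 8.30, 4.44 and 2.93 CPM. For Ppbp, WT thus lay above the other 3 male groups. The list had 12 lower without WT library 1, and 11 lower with any other library left out, with all 12 libraries and with library totals. Of 9 matched erythroid genes 5 were tested and 2 fell, Hba-a2 (-2.98 ± 0.78) and Alas2 (-2.46 ± 0.40), beside 17.8% of all genes. Hba-a2 was at 36.3, 50.7 and 48.2 CPM in WT and at 2.39, 2.53 and 12.5 CPM in treated dnTGFB, so treated library 3 lay apart. Without treated library 3, 5 erythroid genes were lower, and the Hba-a2 call was lost without WT library 2 or 3 or treated library 1 or 2 (adjusted p of up to 0.126). Leaving out WT library 1 gave 2 lower again, and neither gene was called with all 12 libraries.

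Of 18 T cell markers tested, 16 were not called. Cd2 fell (-3.11 ± 0.21), from 10.9, 15.95 and 15.3 CPM to 1.89, 1.81 and 1.29 CPM. Bcl11b, a T lineage factor that neurons also express, rose (1.24 ± 0.22). The chemokine receptor Ccr7, on B cells, T cells and dendritic cells, fell from 18.8, 36.3 and 40.0 CPM to 3.81, 3.69 and 4.39 CPM, and the dendritic cell factor Batf3 rose by 0.89 ± 0.13, with 2 dendritic markers higher and 2 lower of 9. Both lists are read against 14.0% of all genes higher and 17.8% lower. The T cell list without WT library 1 had 4 higher and 2 lower, and the dendritic list 2 and 3.

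Endothelial markers fell in 13 of 16 genes, where 17.8% of all genes fell, with a median of -0.48. Oit3, a marker of liver sinusoidal endothelium, was at 515.0, 689.8 and 711 CPM in WT and at 283.0, 277 and 275 CPM in treated dnTGFB (-1.23 ± 0.10). The endothelial transcription factor Erg (-1.04 ± 0.08), the sinusoidal Fc receptor Fcgr2b (-0.94 ± 0.10) and the lectin Clec4g (-0.73 ± 0.07) fell as well. Lyve1, of lymphatic and sinusoidal endothelium, rose from 252, 184 and 182 CPM to 319, 304 and 324 CPM (0.58 ± 0.14), a call lost without WT library 2 or any treated library (adjusted p of up to 0.0698). The list had 15 lower without WT library 1 and 12 to 13 with another library left out. With library totals 1 gene was lower and with all 12 libraries none, while the median relative to all genes was -0.45 with the main scaling and -0.46 with library totals. The VEGF and angiopoietin list followed, with 9 of 14 lower and Vegfa higher (0.41 ± 0.06), beside 17.8% and 14.0% of all genes. Kdr, the main VEGF receptor, fell from 838, 1178 and 1201 CPM to 601, 601.0 and 604 CPM (-0.86 ± 0.12), Nrp1, a co-receptor, by 0.78 ± 0.05, the ligand Vegfc by 1.12 ± 0.12 and the vessel regulator Angpt2 by 0.58 ± 0.11, and none of the 9 was called as lower with library totals or with all 12 libraries. Without WT library 1 the VEGF list had 3 higher and 10 lower.

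Notch and YAP genes fell in 12 of 22 and rose in 3, where 17.8% of all genes fell and 14.0% rose. Dll4, the Notch ligand of endothelium, fell from 144, 201 and 200.2 CPM to 57.7, 57.0 and 57.2 CPM (-1.70 ± 0.11, adjusted p = 6.5e-05), and the Notch targets Hey1 (-1.45 ± 0.15) and Heyl (-1.12 ± 0.31) fell too. Ankrd1, a target of YAP, rose from 70.5, 55.9 and 59.9 CPM to 146, 133 and 139.6 CPM (1.14 ± 0.10). Heyl lost its call without any treated library (adjusted p of up to 0.113). Counts were 3 higher and 15 lower without WT library 1, 3 to 4 and 10 to 12 with another library left out, and 2 and 2 both with all 12 libraries and with library totals.

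The TGF-β pathway held 4 higher and 10 lower of 24 genes, beside 14.0% and 17.8% of all genes, with a median of -0.19. Ltbp4, which stores latent TGF-β in the matrix, fell from 706, 1009 and 1035 CPM to 338, 345 and 339.7 CPM (-1.46 ± 0.13). The inhibitory factor Smad6 fell by 0.75 ± 0.08 and the ligand Tgfb3 by 0.53 ± 0.13, and Tgfbi, a secreted TGF-β target, rose by 0.66 ± 0.15. Tgfbr2, the receptor whose dominant-negative form the transgene encodes, was at 130.2, 138 and 138 CPM in WT and at 108, 109 and 119 CPM in treated dnTGFB, a change of -0.30 ± 0.06 (adjusted p = 0.00524) that turned to 0.06 with library totals (adjusted p = 0.91). The transgene is driven in T cells, and the counts do not separate it from the endogenous gene. Tgfb3 lost its call without WT library 2 or any treated library (adjusted p of up to 0.0761) and Tgfbi without treated library 2 (0.0549). Counts were 7 higher and 12 lower without WT library 1, 2 to 3 and 7 to 10 with another left out, none with all 12 libraries, and 2 and 1 with library totals, where the list median was 0.15.

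Stellate cell and fibroblast markers held 1 higher and 4 lower of 16, beside 14.0% and 17.8% of all genes, with a median of 0.23. Acta2, smooth muscle actin, went from 97.8, 128 and 123 CPM to 28.1, 29.9 and 25.6 CPM (-2.09 ± 0.10), and was at 67.3, 65.4 and 39.9 CPM in untreated dnTGFB and at 173, 165 and 166 CPM in treated WT. Tagln (-1.14 ± 0.10) and the intermediate filament Des (-0.73 ± 0.13) fell with it, while the fibroblast receptor Pdgfra rose (0.95 ± 0.20). Without WT library 1, 10 were higher and 4 lower, with library totals 7 and 2, and Acta2 was the only one called with all 12 libraries. Extracellular matrix genes held 1 higher and 8 lower of 26, read against the same shares of all genes. Postn (-0.998 ± 0.06), Timp3, an inhibitor of metalloproteinases (-0.89 ± 0.06), and the collagens Col8a1 (-0.90 ± 0.13) and Col6a2 (-0.67 ± 0.09) changed most. Postn was at 49.4, 49.7 and 49.99 CPM in WT and at 26.8, 24.4 and 25.1 CPM in treated dnTGFB. The matrix count turned to 12 higher and 10 lower without WT library 1, and was 4 higher and 0 lower with library totals and 0 and 1 with all 12 libraries.

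Replication and mitosis genes were lower. Of 25 cell cycle genes 16 fell and none rose, where 17.8% of all genes fell and 14.0% rose, with a median of -0.69. Top2a, the topoisomerase of dividing cells, fell from 16.2, 21.3 and 21.1 CPM to 8.65, 8.78 and 8.65 CPM (-1.20 ± 0.12, adjusted p = 0.000267). The mitotic cyclin Ccnb2 (-1.001 ± 0.20), the replicative helicase subunit Mcm5 (-0.97 ± 0.11) and the ribonucleotide reductase subunit Rrm2 (-0.89 ± 0.17) fell similarly, all without overlap. The count was 22 lower without WT library 1, and 11 to 12 with another library left out. With library totals 2 were lower and with all 12 libraries 1, while the median relative to all genes was -0.66 with the main scaling and -0.69 with library totals.

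Promoters of such genes often carry CCAAT boxes, which the factor NF-Y binds. The 250 bases before the start of the 4 named genes are shown because these genes moved together; they come from RefSeq (GRCm38.p6), read 5′ to 3′ on the gene's strand, with each CCAAT or its reverse complement ATTGG in capitals.
Top2a, chr11:99024190-99024439, minus strand: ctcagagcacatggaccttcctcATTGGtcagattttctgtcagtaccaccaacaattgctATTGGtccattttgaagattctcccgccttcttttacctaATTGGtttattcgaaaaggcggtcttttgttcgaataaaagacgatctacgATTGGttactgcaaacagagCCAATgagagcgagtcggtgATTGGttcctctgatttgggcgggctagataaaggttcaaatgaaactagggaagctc
Ccnb2, chr9:70421555-70421804, minus strand: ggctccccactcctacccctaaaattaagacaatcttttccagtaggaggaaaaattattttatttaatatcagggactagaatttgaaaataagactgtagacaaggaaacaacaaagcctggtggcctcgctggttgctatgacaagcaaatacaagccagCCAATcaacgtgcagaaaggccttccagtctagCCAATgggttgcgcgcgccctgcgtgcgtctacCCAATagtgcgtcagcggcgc
Mcm5, chr8:75109259-75109508, plus strand: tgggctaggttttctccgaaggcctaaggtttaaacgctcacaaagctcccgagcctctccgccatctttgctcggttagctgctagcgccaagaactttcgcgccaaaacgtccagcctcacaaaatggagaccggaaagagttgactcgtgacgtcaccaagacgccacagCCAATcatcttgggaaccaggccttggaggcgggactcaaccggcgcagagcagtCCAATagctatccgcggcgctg
Rrm2, chr12:24708004-24708253, plus strand: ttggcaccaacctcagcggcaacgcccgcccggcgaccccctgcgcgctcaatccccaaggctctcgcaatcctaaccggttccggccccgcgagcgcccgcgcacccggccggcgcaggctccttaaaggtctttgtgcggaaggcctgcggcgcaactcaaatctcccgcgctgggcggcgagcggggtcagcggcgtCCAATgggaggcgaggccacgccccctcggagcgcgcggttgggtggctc
The windows held 6, 3, 2 and 1 such matches in that order. Over the list, 20 of the 25 genes matched a RefSeq promoter, and 19 of their 21 promoters (90.5%) had at least 1 match, beside 11120 of 32851 promoters in all (33.8%). A match is a stretch of letters, not a binding site that was measured.

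Cytosolic ribosomal proteins fell in 20 of 33 genes and rose in none, beside 17.8% and 14.0% of all genes. The changes were small, with a median of -0.27. Rps2 went from 820.4, 966 and 1009 CPM to 653, 654 and 641 CPM (-0.55 ± 0.07) and Rpl11 changed by -0.47 ± 0.07. None was called with library totals, where the median was 0.08, or with all 12 libraries, and 31 were lower without WT library 1. Senescence and p53 genes held 1 higher and 7 lower of 20, beside 14.0% and 17.8% of all genes. The cell cycle inhibitor Cdkn1a fell from 302, 271 and 287 CPM to 201, 204 and 193 CPM (-0.56 ± 0.07, adjusted p = 0.00053), the stress genes Gadd45b (-0.87 ± 0.07) and Sesn2 (-0.87 ± 0.11) fell, and Trp53inp1, a p53 target, rose from 78.7, 83.6 and 79.5 CPM to 148, 148.0 and 146 CPM (0.84 ± 0.05). Treated WT was lower still for Cdkn1a, at 76.5, 77.9 and 79.8 CPM. Without WT library 1 the list had 4 higher and 12 lower, with library totals 1 and 0, and with all 12 libraries none.

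Interferon-γ response genes rose in 7 of 24 and fell in 2, where 14.0% of all genes rose and 17.8% fell. The immunity GTPase Igtp rose from 116, 72.9 and 74.3 CPM to 168.0, 169.9 and 169.8 CPM (0.91 ± 0.21), with Gbp7 (0.81 ± 0.19) and Irgm2 (0.70 ± 0.17) of the same class, and Ciita, the master regulator of MHC class II, fell (-1.14 ± 0.22). The chemokine Cxcl9 fell slightly, from 311, 259.5 and 258 CPM to 227, 225 and 221.0 CPM (-0.34 ± 0.09), which turned to 0.06 with library totals, and Cxcl10 lay at 1347, 1582 and 1562 CPM in WT and at 1652, 1619 and 1602 CPM in treated dnTGFB (0.09 ± 0.06, adjusted p = 0.3). Treated WT lay below all 6 libraries for Cxcl10, at 109.6, 105 and 114 CPM. Igtp, Gbp7, Irgm2 and Cxcl9 lost their calls without any treated library, at adjusted p of up to 0.0914, and Gbp7 also without WT library 2. The list had 18 higher and 3 lower without WT library 1, 15 and 0 with library totals, 3 to 6 higher with another library left out and none called with all 12. Type I interferon genes showed 3 higher and 3 lower of 26, under the 14.0% and 17.8% of all genes, with Isg15, a ubiquitin-like protein, lower (-0.45 ± 0.05) and Oasl1, an antiviral RNA sensor, higher (0.52 ± 0.08). Without WT library 1, where 26.2% and 26.7% of all genes were called, 14 were higher and 3 lower.

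Among 27 inflammatory chemokines and cytokines, 7 rose and 5 fell, beside 14.0% and 17.8% of all genes. Ccl4, which attracts T cells and monocytes, rose from 38.6, 25.7 and 28.4 CPM to 92.0, 94.5 and 91.1 CPM (1.55 ± 0.16). The regulatory cytokine Il10 rose from 9.70, 8.76 and 9.58 CPM to 23.3, 23.7 and 23.2 CPM (1.29 ± 0.09), Il18 from 4.12, 5.83 and 4.07 CPM to 11.1, 11.5 and 11.6 CPM (1.26 ± 0.17), and Tnf by 1.22 ± 0.09. Cxcl5, a neutrophil attractant, fell from 11.9, 15.0 and 16.4 CPM to 3.31, 2.82 and 3.25 CPM (-2.23 ± 0.15). Counts were 16 higher and 7 lower without WT library 1, 5 and 3 with any other library left out, 12 and 1 with library totals, and 1 and 1 with all 12 libraries, which were Il10 and Cxcl5.

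Macrophage and Kupffer cell markers rose in 11 of 19 and fell in 1, beside 14.0% and 17.8% of all genes, with a median of 0.42. Marco, a scavenger receptor, changed most, from 30.8, 17.0 and 21.4 CPM to 103.0, 102.0 and 103 CPM (2.12 ± 0.23). The Fc receptor Fcgr1 rose by 1.14 ± 0.19, Cd5l, which macrophages secrete, by 0.69 ± 0.13, and Timd4, of resident Kupffer cells, by 0.61 ± 0.16, a call lost without WT library 2 or treated library 1 or 2 (adjusted p of up to 0.0866). Counts were 12 higher and 3 lower without WT library 1, 6 to 10 and 0 with another library left out, 9 and 0 with library totals, and 2 and 0 with all 12 libraries. MHC class I and peptide loading genes rose in 9 of 14 and fell in 1, read against the same shares of all genes. The transporter Tap2 (0.49 ± 0.07), the loading factor Tapbp (0.40 ± 0.05) and H2-Q7 (0.46 ± 0.11) rose, the last losing its call without treated library 3 (adjusted p = 0.0541), and H2-T24 fell (-1.08 ± 0.12). The fit without WT library 1 called 12 higher and 1 lower, library totals 3 and 0, and all 12 libraries none.

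**Figure D4:**
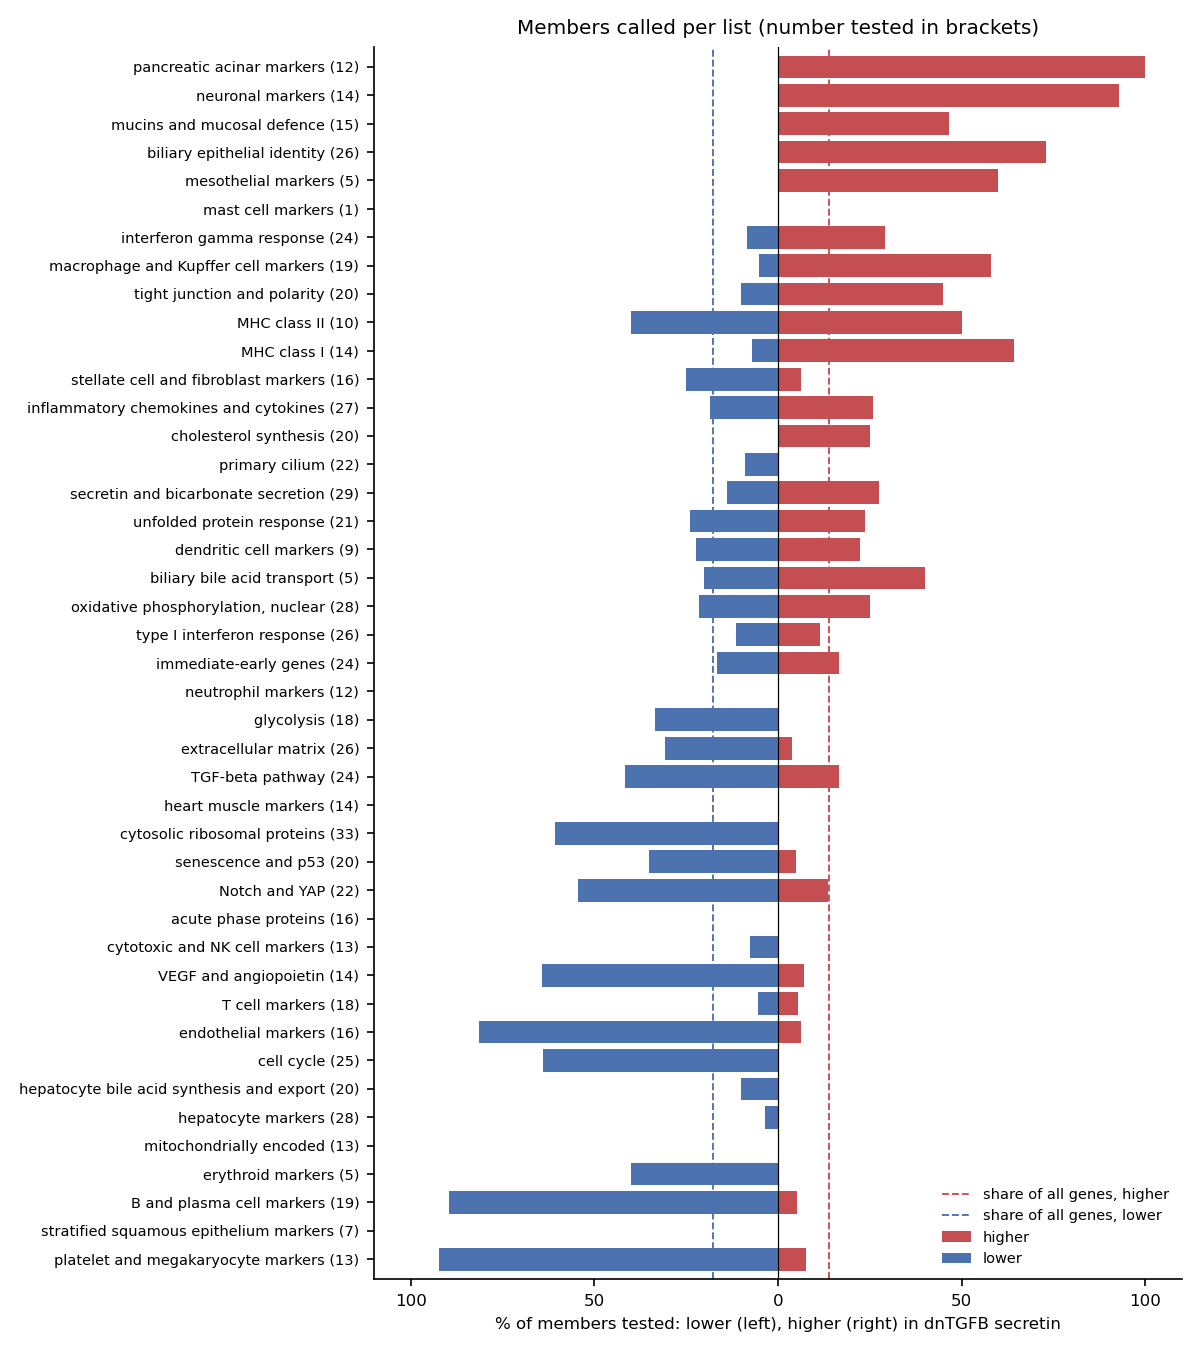
Share of the tested members of each list (%) that were higher (red, to the right) or lower (blue, to the left) in treated dnTGFB at an adjusted p under 0.05, with the number tested in brackets; dashed lines mark the shares over all genes (14.0% and 17.8%). Pancreatic acinar, neuronal and biliary lists lie far to the right, and platelet, B cell and endothelial lists far to the left.

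Several lists changed their result with WT library 1. Counts here and in the next paragraph are read beside 31.8% of all genes called in the 6 libraries. Without WT library 1 that share was 52.9%. Acute phase genes had 0 of 16 called in the 6 libraries and 14 higher without that library. The serum amyloid Saa2 was at 979.8, 5.11 and 5.72 CPM in WT and at 177, 184 and 163 CPM in treated dnTGFB, and its log2 change was -0.98 ± 2.17 with all 6 libraries and 4.999 without WT library 1, while untreated dnTGFB had 1892, 1823 and 60.4 CPM. Itih4, an inter-α-trypsin inhibitor chain, behaved alike, with -0.18 ± 1.28 and 2.33. Neutrophil markers had 0 of 12 called and 10 higher without it, with S100a8 at 69.1, 1.74 and 2.33 CPM in WT and at 19.9, 21.2 and 16.8 CPM in treated dnTGFB (-0.39 ± 1.56, then 3.22) and S100a9 at -0.32 ± 1.47 and 2.92. In both lists treated dnTGFB lay above WT libraries 2 and 3 and below WT library 1.

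Of 28 hepatocyte markers 1 was called, the fatty acid binding protein Fabp1 (-1.56 ± 0.14), and without WT library 1 there were 16 higher and 10 lower, with Alb turning from -1.09 ± 0.82 to 0.20. Among 20 genes of hepatocyte bile acid synthesis and export, the 12α-hydroxylase Cyp8b1 (-1.57 ± 0.18) and the uptake carrier Slco1a1 (-2.76 ± 0.33) fell, and 9 were higher and 3 lower without WT library 1. Slco1a1 was at 3.94, 7.79 and 7.21 CPM in WT and at 0.663, 0.939 and 1.23 CPM in treated dnTGFB, and at 14.2 to 16.2 CPM in treated WT. Cytotoxic and NK cell genes had 1 of 13 called, Tbx21 (-1.70 ± 0.48), which lost its call without any treated library (adjusted p of up to 0.11), and 8 higher and 1 lower without WT library 1. Mitochondrially encoded genes had 0 of 13 called and 10 lower without it, with mt-Co1 at -2.62 ± 1.04 (adjusted p = 0.137) and -0.94. Squamous epithelial keratins such as Krt13, at 122, 21.2 and 12.1 CPM in WT and at 5.50, 3.14 and 3.22 CPM in treated dnTGFB, were not called in the 6 libraries (0 of 7) and 4 of the list were lower and 1 higher without WT library 1. Zero calls in these lists are from edgeR. At an unadjusted p under 0.05 the same lists held 0 acute phase, 0 neutrophil, 6 mitochondrial and 6 squamous genes. In that order, DESeq2 called 1 of 6, 0 of 8, 8 of 9 and 7 of 9 members. The other members had no DESeq2 p-value, so these are not counts over the members that edgeR tested.

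**Figure D5:**
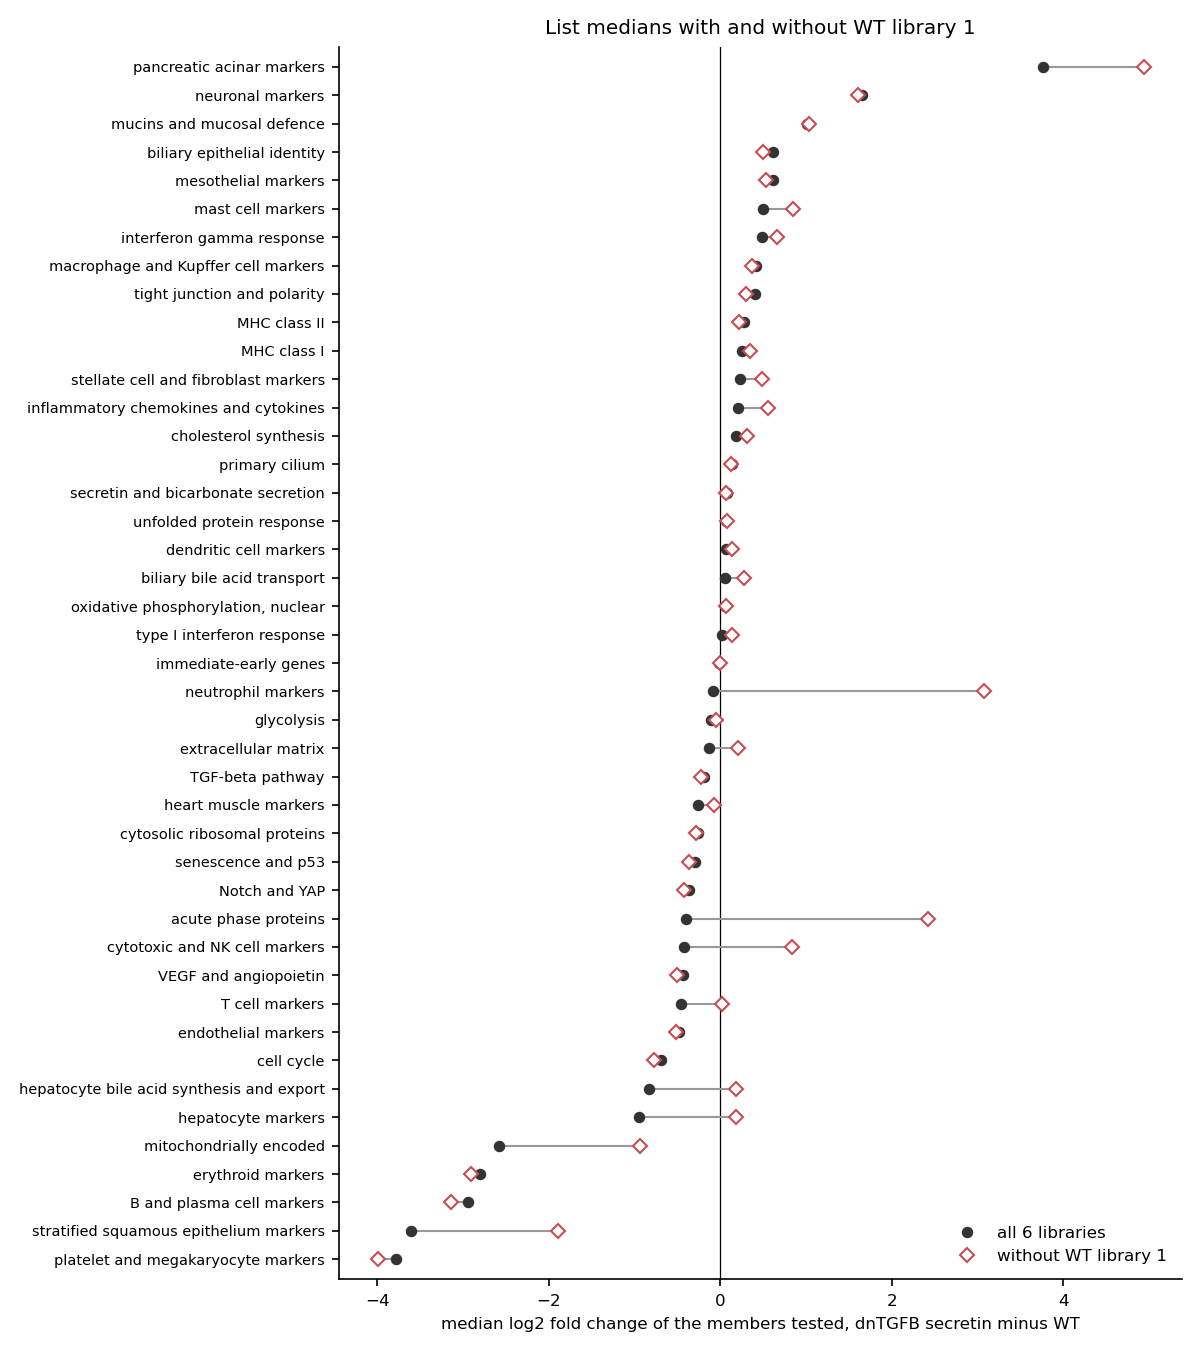
Median log2 fold change of the tested members of each list in all 6 libraries (dots) and without WT library 1 (open diamonds). The neutrophil (-0.09 to 3.07) and acute phase lists (-0.40 to 2.42) move furthest, and the platelet, B cell, endothelial and biliary lists keep their place.

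Among bile acid transporters of the duct wall, 3 of 5 tested were called, beside 31.8% of all genes. The transcript of Slc10a2, the apical sodium bile acid transporter, rose from 9.28, 9.44 and 12.2 CPM to 20.8, 21.9 and 23.5 CPM (1.07 ± 0.12). The basolateral exporter Abcc3 rose from 42.6, 42.9 and 43.6 CPM to 61.2, 62.4 and 66.0 CPM (0.52 ± 0.06), while Abcc4 fell (-0.38 ± 0.07). Without WT library 1, 2 were higher and 2 lower of 6. Sterol synthesis genes rose in 5 of 20, beside 14.0% of all genes, among them Cyp51 (0.39 ± 0.06). Of this list 14 rose and 1 fell without WT library 1, and none was called with all 12. Unfolded protein response genes held 5 higher and 5 lower of 21, where 14.0% and 17.8% of all genes were called, 9 and 6 without WT library 1 and 2 and 0 with library totals, with Creld2 higher (0.49 ± 0.07) and the stress gene Trib3 lower (-1.06 ± 0.21). Immediate-early genes held 4 higher and 4 lower of 24, near the 14.0% and 17.8% of all genes. They held 8 and 11 without WT library 1 and 3 and 0 with library totals, with Klf6 higher (0.58 ± 0.05) and Nr4a1 lower (-0.62 ± 0.06). Glycolytic enzymes fell in 6 of 18, beside 17.8% of all genes, and by little (Gapdh, -0.36 ± 0.06, 0.01 with library totals). They held 3 higher and 7 lower without WT library 1 and none called with library totals. Nuclear genes of oxidative phosphorylation held 7 higher and 6 lower of 28, beside 14.0% and 17.8% of all genes, 10 and 8 without WT library 1 and none with library totals, with Cox5a at 0.36 ± 0.05 and Uqcrc2 at -0.38 ± 0.05. Primary cilium genes had 2 of 22 lower, a smaller share than the 17.8% of all genes, and 5 higher and 3 lower without WT library 1. The 2 were Ift140 (-0.46 ± 0.12) and Pkd1 (-0.33 ± 0.09), both lost without treated library 1 or 3 (adjusted p of up to 0.0963). With all 12 libraries Slc10a2 was the only gene of these lists that was called.

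Pancreatic acinar and neuronal genes also differed, and the source of their transcripts was not tested. All 12 pancreatic acinar genes tested rose, where 14.0% of all genes rose, with a median of 3.76. All 12 were also called with library totals and with all 12 libraries, as were 13 of 13 without WT library 1. Cela3b, a pancreatic elastase, was at 1.03, 0.340 and 0.443 CPM in WT and at 21.6, 23.1 and 19.8 CPM in treated dnTGFB (5.13 ± 0.33), at 4.497, 1.94 and 1.76 CPM in untreated dnTGFB and at 9.71, 10.9 and 9.28 CPM in treated WT. Try5 (5.27 ± 0.37), Try4 (3.82 ± 0.77) and Prss2 (3.86 ± 0.60) are trypsinogens with near-identical copies, so reads shared between them make single values uncertain, and Try4 lost its call without any treated library (adjusted p of up to 0.0654). The carboxypeptidase Cpa1 (4.10 ± 0.55), the lipase cofactor Clps (4.07 ± 0.61) and the elastase Cela2a (3.86 ± 0.64) rose as well. The whole list summed to 67.7, 69.0 and 75.4 CPM in WT and to 349.9, 363 and 336 CPM in treated dnTGFB.

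Of 14 neuronal markers 13 rose and none fell, where 14.0% of all genes rose. The counts were the same without WT library 1, and the median was 1.65. Slc17a7, a vesicular glutamate transporter, went from 7.73, 8.34 and 8.69 CPM to 43.8, 47.6 and 49.5 CPM (2.48 ± 0.08), and the synaptic protein Syn1 (2.90 ± 0.13), the neurofilament Nefm (3.35 ± 0.20) and the glutamate receptor Grin1 (2.35 ± 0.28) rose with it. Untreated dnTGFB held more, with Slc17a7 at 97.0, 102 and 901 CPM, while treated WT was at 9.67, 8.33 and 5.77 CPM, so both dnTGFB groups lay above both WT groups. Only Nefm of the list was called with all 12 libraries. Mesothelial markers rose in 3 of 5, beside 14.0% of all genes, and in 4 without WT library 1, where 26.2% of all genes rose. The 3 were Gpm6a (0.58 ± 0.09), Msln (0.61 ± 0.16) and Wt1 (1.32 ± 0.35). Msln lost its call without any treated library and Wt1 without any library but WT library 1 (adjusted p of up to 0.103). Heart muscle genes had none called of 14 by edgeR, with 1 at an unadjusted p under 0.05 and 1 lower without WT library 1, and Myh6 was at 238, 263.0 and 225 CPM in WT and at 236, 226 and 194.0 CPM in treated dnTGFB. Of 6 mast cell genes 1 was tested and not called, and 1 of 4 was higher without WT library 1.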

How the data were processed

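RNA of intrahepatic cholangiocytes from 1 pool of 6 to 8 mice per group was sequenced in triplicate from 500 ng of RNA, per the labels' protocols. The authors deposited raw counts per gene, 1 table per library; the aligner, the counter and its strand setting were not given in the sources used here, so overlapping antisense genes cannot be told apart. Gene coordinates in the tables are of GRCm38, and 49056 of 49315 gene IDs are in GENCODE M21. Libraries were grouped by title.

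Counts were filtered (filterByExpr), scaled by TMM and tested with edgeR 4.0.16 in R 4.3.3 (robust quasi-likelihood F test, Benjamini-Hochberg adjustment, called at an adjusted p under 0.05) in the 6 libraries. The SE is the log2 fold change over the square root of F, an approximation. CPM levels use TMM factors of the 12 male libraries. Only the main edgeR fit was run on simulated counts with known changes. Apart from these changes all simulated libraries shared the same profile, so a library as unlike as WT library 1 was not covered. Alternatives were DESeq2 1.42.0, limma-voom (limma 3.58.1), other scalings and filters, all 12 male libraries, leaving out each library, and a replicate block. Same-numbered libraries of the groups did not deviate together (correlations 0.02, 0.031 and -0.012), so numbers were not taken as pairs.

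Genes named are the 10 largest increases and decreases (protein-coding, called with and without WT library 1, at least 10 CPM in the higher group, no overlap), 8 genes always named, and up to 4 called members per list of at least 5 CPM. Chosen outside this rule, after their values were seen, were Aqp1, Gnas, Vipr1, Slc9a3, Atp1b1, Spp1, Pigr, Lcn2, Jchain, H2-Aa, H2-Ab1, H2-Eb1, H2-DMb1, Itgb3, Vegfa, Lyve1, Cxcl9, Cxcl10, Tnf, Tbx21, Alb and the immunoglobulin constant genes. Members and all 43 lists were chosen with earlier results of these data known. Some genes that the rule names are not reported here. The 12 female libraries were not used.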

Additional observations from a re-analysis of the deposited data

How the results depend on the processing

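The calls moved with the samples and the scaling more than with the test. Of 5646 calls, 5104 kept their direction and call with DESeq2 and 5507 with limma-voom, and other filters, size factors or removal of mitochondrially encoded genes left 5488 to 5632 calls. Library totals gave 3300 calls, 2758 higher and 542 lower, and 857 of the main calls had the opposite sign there. All 12 male libraries gave 814 calls, 353 higher and 461 lower, and the same libraries without WT library 1 and untreated dnTGFB library 3 gave 7306, 3627 higher and 3679 lower; the cause was not tested. Leaving out 1 library at a time gave 3313 to 9609 calls, 1459 to 4754 higher and 1854 to 4855 lower. The replicate block gave 4695 calls, 2109 higher and 2586 lower, with numbers that do not pair the libraries.

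Of 150 named genes that were called, 123 were called in all 6 fits that left out a library, 105 with library totals and 64 with all 12 male libraries. Most were chosen for large changes or for being called, so these counts do not describe all calls. Of the 5646 calls, 3283 to 3415 kept call and direction when a treated library was left out. With library totals 2492 did so, and with all 12 male libraries 788. Genes that reversed were not called with the 6 libraries, or were called with changes of -0.30 (Tgfbr2) to -0.36 (Gapdh). With 1 library left out at a time the log2 change ran from -1.46 to 0.204 for Alb, -0.678 to 2.335 for Itih4, -0.945 to 3.222 for S100a8, -0.849 to 2.924 for S100a9 and -1.561 to 4.999 for Saa2, the highest value each time without WT library 1. In the 12 male libraries without WT library 1 and untreated dnTGFB library 3 it was 0.216, 2.347, 3.233, 2.936 and 5.011 for the same genes. For Itih4, S100a8, S100a9 and Saa2 it was 1.068, 1.66, 1.491 and 2.666 with limma-voom and 1.18, 1.46, 1.363 and 3.252 with the replicate block. With library totals it was 0.056 for Cxcl9, 0.012 for Gapdh, 0.6 for Itih4, 0.177 for Myh6, 0.051 for Pkd1, 0.422 for S100a8, 0.485 for S100a9 and 0.055 for Tgfbr2. By the labels each group is 1 pool, so no value here carries the spread between mice.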

Other observations

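WT library 1 can be placed against the other male libraries. Of 678 genes that it held at least 2-fold above WT libraries 2 and 3, 566 (83.5%) lay at a level between those libraries and untreated dnTGFB libraries 1 and 2, beside 7299 of 12114 genes (60.3%) over all genes of at least 5 CPM in a WT library. Of 32 genes that it held at least 2-fold below WT libraries 2 and 3, 19 (59.4%) lay between in the same way, about the share over all genes. Between treated dnTGFB and WT, 48 of the 678 genes (7.1%) and 13 of the 32 (40.6%) were called, beside 4368 of the 12114 (36.1%). Both sets were chosen by a difference among the WT libraries, which widens the spread that the test uses. Their shares of calls therefore cannot be read against that of all genes. The choice also fixes on which side of WT libraries 2 and 3 library 1 lies, so the shares lying between are not on an equal footing either. These are counts of levels, and what sets WT library 1 apart was not tested.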
